A study of Mus musculus with 8 samples.

Results

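The genes described here are the 9 synaptonemal complex and meiotic cohesin genes Sycp1, Sycp2, Sycp3, Syce1, Syce2, Syce3, Smc1b, Rec8 and Stag3, taken by name from 21444 mouse genes with a count. RNA was measured in primordial germ cells, the embryonic precursors of eggs and sperm, sorted from embryos at embryonic day 11.5. There were 4 Prmt5 KO libraries (genotype Blimp1Cre;Prmt5flox/flox) and 4 Control libraries (Blimp1Cre;Prmt5flox/+), all on a mixed C57BL/6 and 129 background. Both groups carry the Cre, which is driven from Blimp1 and so acts in early germ cells, and the dPE_Oct4 GFP reporter by which the cells were sorted. Controls also carry 1 floxed Prmt5 allele, so the comparison sets cells with both alleles floxed against cells with 1 floxed allele. The labels do not give the sex of the embryos, the number of embryos per library or whether embryos were pooled.

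The synaptonemal complex is the protein ladder that holds homologous chromosomes together in meiotic prophase. Its lateral elements contain Sycp2 and Sycp3, its transverse filaments are made of Sycp1, and its central element contains Syce1, Syce2 and Syce3. Cohesin is the ring that holds sister chromatids together, and meiotic cells replace the Smc1a, Rad21 and Stag1 or Stag2 subunits by Smc1b, Rec8 and Stag3, while Smc3 is shared. Female germ cells of the mouse enter meiosis later in fetal life than the age sampled here and male germ cells after birth, but several of these genes are already transcribed in the germ cells of the fetal gonad. Prmt5 is an arginine methyltransferase whose substrates include histones and the Sm proteins of the spliceosome.

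No gene of the set passed the test. Of the 9 genes, 8 had enough reads to be tested, and 0 of these 8 had an adjusted p below 0.05 with edgeR's quasi-likelihood test, against 3 of 10990 tested genes (0.0273%; 1 lower in Prmt5 KO, 0.0091%). Syce3 was almost undetected. The log2 fold change of Prmt5 KO over Control was below 0 for 7 of the 8 tested genes, against 47.3% of all tested genes, and its median was -0.36, against 0.03 over all tested genes. Without Control 1 the count was 4 of 8 and the median -0.19, and without Prmt5 KO 4 the median was -0.71. Syce2, a central element gene, was lower in each Prmt5 KO library than in any Control library, as 2.27% of all tested genes were. It was the 1 gene of the set with an unadjusted p below 0.05, a level that 8.15% of all tested genes reached in either direction and 3.69% on the lower side. DESeq2 called 107 genes in all (0.974%), of which 45 were lower in Prmt5 KO (0.409%), and Syce2 was the 1 of the set among them. Rec8, the meiotic cohesin subunit that closes the ring, was the 1 tested gene of the set with a fold change above 0. In bulk RNA of sorted cells, fewer cells expressing a gene and less RNA per cell cannot be told apart. Whether libraries of a group come from separate embryos is not in the labels, so p-values rest on the spread among these libraries, technical spread included.

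Depth and purity differed between libraries. Total counts over genes lay between 4318972 and 6549504 in Prmt5 KO libraries and between 1811428 and 5844441 in Control libraries, of which Control 2 and Control 3 were the shallowest. Prmt5 itself fell (log2 fold change -1.95, SE 0.272; edgeR, adjusted p = 0.0389), and its level was 39.9, 40.5, 35.3 and 26.4 CPM (reads per 1000000 of the TMM-scaled library size) in Prmt5 KO against 89.4, 171, 172 and 118 CPM in Control. Its adjusted p was above 0.05 in 13 of 22 alternative settings, among them limma voom (0.171), the replicate block (0.130) and 7 of 8 fits with 1 library left out (0.0578 to 0.234), while the log2 fold change lay between -2.25 and -1.54 throughout. The germ cell markers, 15 of 15 tested with none called, summed to between 3593 and 4091 CPM in Prmt5 KO and between 3469 and 4173 CPM in Control. A multidimensional scaling used the tested genes that differed most between each pair of libraries. In it Prmt5 KO 1 and Prmt5 KO 4 stood apart from the other 6 libraries, at -2.26 on the second and -2.69 on the first dimension (leading log2 fold change). Markers of somatic gonad and mesonephros summed to 828 CPM in Prmt5 KO 1, between 230 and 270 CPM in the other Prmt5 KO libraries and between 228 and 303 CPM in Control. Prmt5 KO 1 had the highest level of 11 of these 15 markers, among them Acta2 at 208 CPM and Col1a1 at 92.9 CPM. None of the tested markers of other cells was called by edgeR (8 of 15 somatic, 3 of 7 endothelial and 1 of 10 blood markers passed the filter). DESeq2 called the endothelial receptor gene Tek higher in Prmt5 KO (log2 fold change 2.07, adjusted p = 0.0430; edgeR adjusted p = 0.409), at 72.4, 12.2, 53.7 and 71.0 CPM in Prmt5 KO against 28.9, 4.46, 7.68 and 8.09 CPM in Control. The endothelial markers Kdr and Emcn were at 0 in all Prmt5 KO libraries and in 3 of the 4 Control libraries. Cdh5 had between 0.249 and 1.52 CPM in Prmt5 KO and between 0.893 and 5.80 CPM in Control. Egfl7 had between 1.74 and 7.09 CPM in Prmt5 KO and between 5.49 and 18.8 CPM in Control. Tie1 had reads in Prmt5 KO 3 (1.19 CPM) and Control 1 (0.169 CPM). Of 5 sex-linked markers Xist alone was tested, with a log2 fold change of 0.63 (adjusted p = 0.870, edgeR). Endothelial markers summed to between 296 and 395 CPM in Prmt5 KO and between 279 and 360 CPM in Control, most of it Pecam1, which germ cells also express. Blood markers summed to between 7.23 and 45.3 CPM in Prmt5 KO and between 21.5 and 43.6 CPM in Control. Most of this was Csf1r, at 6.48 to 39.3 CPM in Prmt5 KO and 20.6 to 42.7 CPM in Control. The globins Hbb-y and Hba-a1 had no entry among the counts. Hba-x had at most 0.549 CPM and Hbb-bs at most 0.176 CPM in any library. The part of the somatic and endothelial markers in the results was not tested.

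The promoters of all 9 genes held more CpG dinucleotides than the median promoter. Methylated CpG-rich promoters of germline genes, that of Sycp3 among them, are known to lose DNA methylation in mouse primordial germ cells around this age. A window from 250 bases before to 50 bases after the RefSeq start held between 10 and 30 CpG dinucleotides in the 9 genes, with a median of 18, and all 9 lay above the median of 7 over 32851 RefSeq promoters (build GRCm38.p6). The set was then searched on both strands for CACGTG, the E-box bound by MAX and MGA dimers, and for TCCCGC, a core of E2F sites. MGA, MAX and E2F6 are subunits of a Polycomb complex known to silence germline genes in mouse embryonic stem cells. CACGTG was found in 3 of the 9 windows (Sycp1, Sycp3 and Stag3), against 7.15% of all promoters and 10.9% of the 14281 promoters with at least 10 CpG. TCCCGC was found in 6 of the 9 windows (Sycp1, Sycp3, Syce2, Smc1b, Rec8 and Stag3), against 19.975% of all promoters and 40.3% of those with at least 10 CpG. Both motifs occurred together in 3 of the 9, against 1.99% and 4.35% in the same backgrounds. Sycp2, Syce1 and Syce3 held neither in this window. These counts use the RefSeq start nearest to the counted transcript; a second start of Syce3 has 5 CpG in its window, below the median of 7, and neither motif.

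The upstream sequences are shown for a gene of each part of the complex: Sycp1 for the transverse filament, Sycp3 for the lateral element, Syce2 because it had the smallest p of the set, and Smc1b for cohesin. Each is RefSeq sequence of GRCm38.p6, read 5′ to 3′ on the strand of the gene and ending before the first base of any annotated transcript of that gene, with complete CACGTG and TCCCGC matches in capitals (TCCCGC also as its reverse complement GCGGGA). The Sycp1 window is chr3:102936101-102936280 on the minus strand, the Sycp3 window chr10:88459407-88459568 on the plus strand, the Syce2 window chr8:84871931-84872110 on the plus strand and the Smc1b window chr15:85131965-85132077 on the minus strand.
Sycp1: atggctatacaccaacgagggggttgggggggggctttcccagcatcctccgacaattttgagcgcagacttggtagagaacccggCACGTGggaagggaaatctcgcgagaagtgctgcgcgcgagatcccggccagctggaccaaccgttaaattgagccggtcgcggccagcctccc
Sycp3: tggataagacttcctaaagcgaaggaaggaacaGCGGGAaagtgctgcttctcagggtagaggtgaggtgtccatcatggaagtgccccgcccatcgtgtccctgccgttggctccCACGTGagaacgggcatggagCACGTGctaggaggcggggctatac
Syce2: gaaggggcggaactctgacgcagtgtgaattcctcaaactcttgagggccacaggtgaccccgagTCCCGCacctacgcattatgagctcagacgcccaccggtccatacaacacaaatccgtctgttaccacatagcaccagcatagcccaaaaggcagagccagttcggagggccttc
Smc1b: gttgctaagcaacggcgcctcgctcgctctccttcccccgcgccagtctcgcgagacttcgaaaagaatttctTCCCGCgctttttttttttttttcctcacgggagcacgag
The capitals begin 94 bases before the RefSeq start in Sycp1. In Sycp3 there are 3 matches, the E2F core at 147 bases and an E-box at 64 and again at 43 bases before the start. Of all promoters, 0.594% hold 2 or more E-boxes, a share that was not taken among promoters with at least 10 CpG. The E2F core of Syce2 begins 115 bases and that of Smc1b 47 bases before the start. A second RefSeq start of Syce2, 147 bases downstream of the one used here, has an E-box 88 bases before it.

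**Figure D1:**
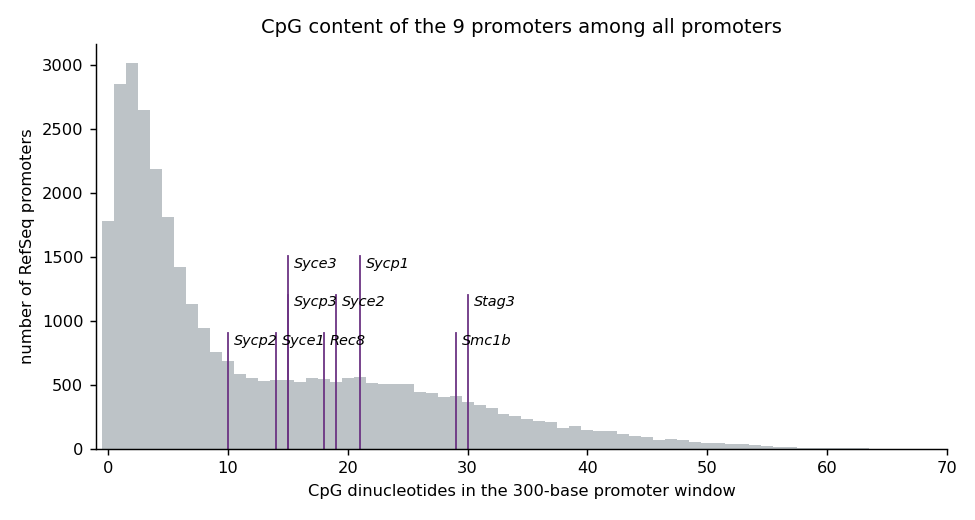
Number of CpG dinucleotides in the 300-base promoter window (x axis) against the number of RefSeq promoters with that count (y axis, grey bars, 32851 promoters). Purple lines mark the 9 genes, which lie between 10 and 30 CpG, all above the median of 7.

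The lateral element genes were expressed at a low level and varied widely within each group. Sycp2 (chr2:178345293-178407685, minus strand, 44 exons in the counted transcript) builds the lateral element together with Sycp3. Its level was 0.844, 0.388, 7.59 and 1.25 CPM in Prmt5 KO, against 12.7, 0.446, 4.39 and 8.44 CPM in Control. Control 1 was the highest library and Prmt5 KO 2 the lowest, and the groups overlapped. This gave a log2 fold change of -1.37 (SE 0.997, adjusted p = 0.771 in edgeR), with a 95% interval between -3.52 and 0.78. It was -2.97 without Prmt5 KO 3 and -0.83 without Control 1. Sycp3 (chr10:88459569-88473236, plus strand, 8 exons) had 15.0, 5.62, 7.44 and 3.74 CPM in Prmt5 KO and 5.58, 4.02, 11.5 and 15.3 CPM in Control. Its highest libraries, Prmt5 KO 1 and Control 4, stood at almost the same level in opposite groups, and the log2 fold change was -0.19 (SE 0.667, adjusted p = 0.972 in edgeR). Leaving out 1 library turned its direction, to 0.0378 without Prmt5 KO 4 and 0.19 without Control 4, and it was -0.70 without Prmt5 KO 1. Of the 1169 exonic bases of the counted Sycp3 transcript, 660 overlap exons of Chpt1 on the opposite strand, and whether the counting used strand is not known here, so reads of the pair may be mixed.

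Sycp1 (chr3:102818499-102936100, minus strand, 33 exons), the transverse filament that bridges the homologues, rested on few reads in every library but 1. Its level was 1.35, 2.33, 4.46 and 8.72 CPM in Prmt5 KO, against 31.3, 4.02, 3.29 and 1.06 CPM in Control. Control 1 alone, with 185 of the 291 reads of the gene, lay above all Prmt5 KO libraries, and the other Control libraries lay among or below them. The log2 fold change was -1.26 (SE 0.974, adjusted p = 0.789 in edgeR) with all libraries and 0.63 without Control 1.

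The central element genes covered the whole range from the highest level of the set to almost none. Syce2 (chr8:84872111-84888221, plus strand, 5 exons), which with the protein Tex12 extends the central element along the chromosome, had 53.2, 111, 108 and 107 CPM in Prmt5 KO, against 170, 196, 221 and 137 CPM in Control. Every Prmt5 KO library lay below every Control library, and Control 4 was the nearest to them. The mean in Prmt5 KO was 52.5% of that in Control, and the log2 fold change was -0.93 (SE 0.251), with a 95% interval between -1.47 and -0.39. The unadjusted p was 0.00266 and the adjusted p 0.304 with edgeR, so the difference did not pass the threshold over 10990 genes. In DESeq2 the values were -0.92 on the log2 scale and an adjusted p of 0.0463, and over all alternative settings the adjusted p lay between 0.0463 and 0.832. Prmt5 KO 1, the library with high somatic markers, was the lowest, and without it the log2 fold change was -0.73, still with each Prmt5 KO library below each Control library.

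Syce1 (chr7:140777229-140787852, minus strand, 13 exons), which joins Syce3 and Sycp1 in the central element, had 16.5, 31.0, 36.5 and 83.7 CPM in Prmt5 KO and 37.0, 59.4, 56.0 and 75.6 CPM in Control. The lowest 3 Prmt5 KO libraries lay below all Control libraries, while Prmt5 KO 4 was the highest of the 8. The log2 fold change was -0.45 (SE 0.435, adjusted p = 0.836 in edgeR), and it was -0.18 without Prmt5 KO 1, -1.02 without Prmt5 KO 4 and -0.28 without Control 4. Syce3 (chr15:89390174-89410503, minus strand, 3 exons), needed to start central element assembly, had 15 reads in Prmt5 KO 1, 1 read in Control 4 and 0 in the other 6 libraries, and was not tested. A count of 0 allows a level of up to between 0.446 and 0.748 CPM in the Prmt5 KO libraries without reads and up to between 0.507 and 1.65 CPM in the Control libraries without reads (3 counts per library, counting error only). The 15 reads stood in the library with high somatic markers.

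The meiotic cohesin genes did not separate the genotypes. Smc1b (chr15:85064689-85131964, minus strand, 25 exons), the meiotic form of the ring subunit Smc1a, had 68.9, 30.4, 37.1 and 67.0 CPM in Prmt5 KO, against 127, 35.3, 51.0 and 31.8 CPM in Control. Control 1 was far above the rest and the other Control libraries lay within the Prmt5 KO range. The log2 fold change was -0.28 (SE 0.446, adjusted p = 0.934 in edgeR). It was 0.37 without Control 1 and lay between -0.50 and -0.0931 in the other 7 leave-outs. Stag3 (chr5:138280240-138312393, plus strand), the meiotic subunit that binds the ring from outside, had 98.8, 129, 103 and 169 CPM in Prmt5 KO, against 209, 110, 146 and 118 CPM in Control. Prmt5 KO 4 and Control 1 were the highest of their groups, which overlapped. Its fold change, -0.23 on the log2 scale (SE 0.248, edgeR adjusted p = 0.862), had a 95% interval between -0.76 and 0.31, the narrowest of the 8 together with that of Syce2, and it was 0.0024 without Control 1 and between -0.41 and -0.13 in the other 7 leave-outs. The most counted Stag3 transcript is annotated as a retained intron, and the main coding transcript had 5001 reads against 5034 for it, so either gave nearly the same level.

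Rec8 (chr14:55618037-55625395, plus strand, 20 exons), the meiotic kleisin whose cleavage lets chromosomes part, had 18.1, 18.4, 9.97 and 29.7 CPM in Prmt5 KO, against 8.62, 9.82, 29.1 and 8.27 CPM in Control. All 4 Prmt5 KO libraries lay above 3 of the 4 Control libraries, but Control 3 was level with the highest Prmt5 KO library. On the log2 scale the fold change was 0.47 (SE 0.559, adjusted p = 0.882 in edgeR), with a 95% interval between -0.74 and 1.68. It was 0.18 without Prmt5 KO 4, 0.29 without Control 1, 1.09 without Control 3, 0.28 without Control 4 and 0.0578 without both Prmt5 KO 1 and Prmt5 KO 4.

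**Figure D2:**
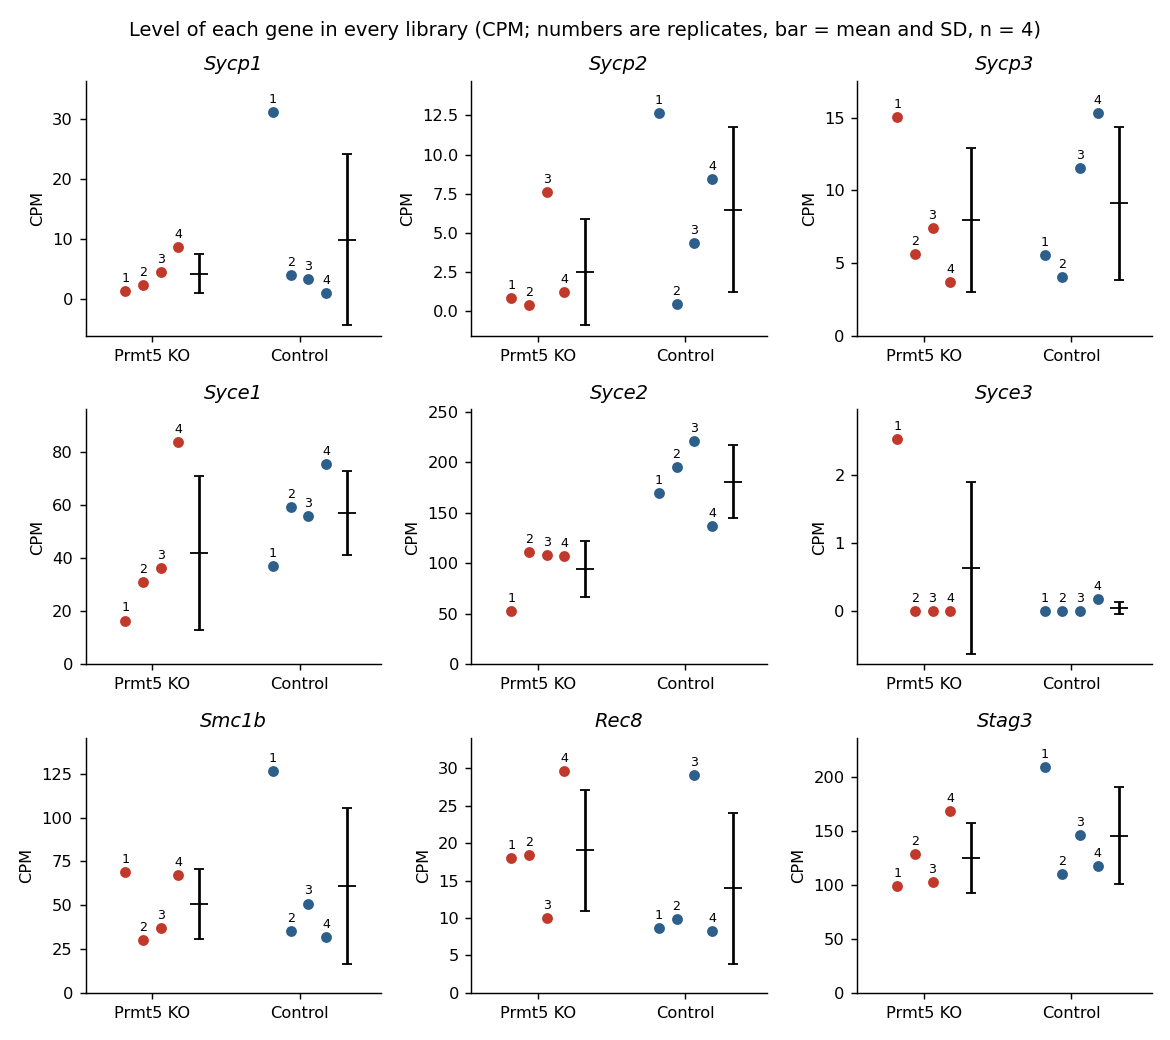
Level of each of the 9 genes in CPM (y axes, separate scales) in every library, with Prmt5 KO in red left of Control in blue. Numbers are replicate numbers, and the bar is the mean with its SD (n = 4 per group). Only the Syce2 panel shows groups that do not overlap, with Prmt5 KO between 53.2 and 111 CPM and Control between 137 and 221 CPM.

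Counts grow with transcript length, so levels between genes were set in CPM per kb of the counted transcript. Syce2 was the highest gene of the set at 56.3 ± 16.5 CPM per kb in Prmt5 KO and 107 ± 21.4 CPM per kb in Control (SD, n = 4 each). Syce1 at 28.7 ± 19.9 and Stag3 at 26.7 ± 6.90 CPM per kb followed in Prmt5 KO, and at 39.0 ± 10.9 and 31.2 ± 9.64 CPM per kb in Control, and this pair did not differ beyond its spread in either group. Smc1b averaged 12.6 ± 4.93 CPM per kb in Prmt5 KO and 15.1 ± 11.0 CPM per kb in Control. Rec8 averaged 8.71 ± 3.70 CPM per kb in Prmt5 KO and 6.39 ± 4.63 CPM per kb in Control, and Sycp3 6.81 ± 4.24 CPM per kb in Prmt5 KO and 7.79 ± 4.49 CPM per kb in Control, so that their order differed between groups by less than the spread. Sycp1 averaged 1.23 ± 0.953 CPM per kb in Prmt5 KO and 2.88 ± 4.16 CPM per kb in Control, and Sycp2 was the lowest of the tested genes at 0.440 ± 0.595 CPM per kb in Prmt5 KO and 1.14 ± 0.920 CPM per kb in Control. Summed over the 9 genes, the level was 275, 328, 314 and 470 CPM in Prmt5 KO, against 601, 418, 523 and 395 CPM in Control. Prmt5 KO 4 lay above Control 2 and Control 4, so the sums overlapped.

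The counterparts of the meiotic subunits in mitotic cohesin differed between the groups by less than the spread between libraries. Of the 5 mitotic core genes all were tested and 0 were called, 3 had a fold change above 0 and 2 below it, and their median log2 fold change was 0.01. Smc1a had 243 ± 64.6 CPM in Prmt5 KO and 228 ± 53.6 CPM in Control (SD, n = 4 each; log2 fold change 0.09). Smc3, which both kinds of ring use, had 478 ± 98.5 CPM in Prmt5 KO and 530 ± 120 CPM in Control. The mitotic kleisin Rad21 had 601 ± 129 CPM in Prmt5 KO and 572 ± 99.0 CPM in Control, and Stag1 had 113 ± 23.0 CPM in Prmt5 KO and 113 ± 10.5 CPM in Control. Stag2, at 3.22 ± 3.82 CPM in Prmt5 KO and 3.87 ± 4.05 CPM in Control, was hardly detected, and the meiotic kleisin Rad21l had no count. The intervals of the mitotic genes other than Stag2 were narrower than those of every tested gene of the set.

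**Figure D3:**
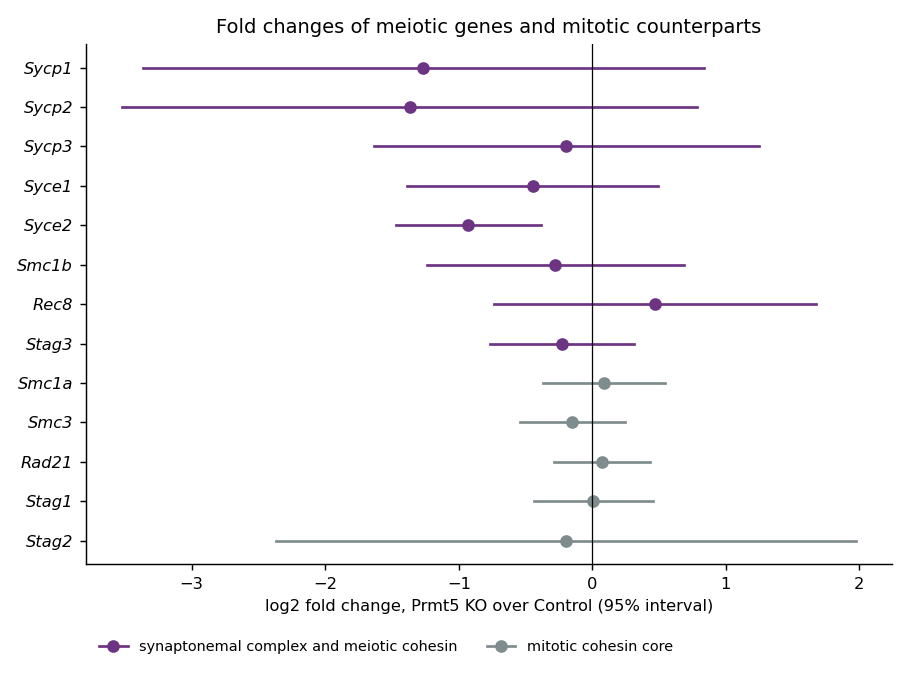
Log2 fold change of Prmt5 KO over Control (x axis) for the 8 tested genes of the set (purple) and the 5 mitotic cohesin core genes (grey), with 95% intervals from edgeR. Of these 13 intervals only that of Syce2 lies wholly below 0, and its adjusted p is 0.304.

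The share of the meiotic form within each kind of subunit, taken per kb, gave a measure that does not depend on library scaling. Smc1b made up 30.2%, 15.0%, 14.3% and 19.2% of Smc1a plus Smc1b in Prmt5 KO, against 32.3%, 17.0%, 22.4% and 15.6% in Control. Rec8 made up 3.96%, 5.73%, 3.19% and 9.44% of Rad21 plus Rec8 in Prmt5 KO, against 2.21%, 3.28%, 7.95% and 3.13% in Control. Stag3 made up 49.3%, 66.6%, 54.0% and 63.5% of Stag1, Stag2 and Stag3 in Prmt5 KO, against 71.4%, 57.9%, 58.6% and 58.1% in Control. All 3 shares overlapped between genotypes. In every library the meiotic share was highest among the Stag transcripts, from 49.3% upwards, lower among the Smc1 transcripts and lowest among the kleisin transcripts, where it stayed at or below 9.44%. Stag2, at 3.22 ± 3.82 CPM in Prmt5 KO and 3.87 ± 4.05 CPM in Control, added little to the Stag sum. The Stag share is therefore mostly one of Stag3 against Stag1, and it rests on the low count of Stag2.

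Single libraries decided the direction of several fold changes. Control 1 was the highest of the 8 libraries for Sycp1, Sycp2, Smc1b and Stag3. Dazl, the germ cell gene that licenses germ cells for sexual differentiation, was also highest there, at 331 CPM, with 163, 56.2, 97.2 and 185 CPM in Prmt5 KO against 331, 79.5, 110 and 237 CPM in Control. Without Control 1 the fold changes of Sycp1, Smc1b and Stag3 were above 0, and the median of the set was -0.19. Prmt5 KO 1 was the lowest Prmt5 KO library for Sycp1, Syce1, Syce2 and Stag3 and the highest for Sycp3 and Smc1b. Without Prmt5 KO 1 the log2 fold change was -0.97 for Sycp1, -1.08 for Sycp2, -0.46 for Smc1b, -0.13 for Stag3 and 0.50 for Rec8, beside the values of Sycp3, Syce1 and Syce2 given above. The median of the set was then -0.58, and without Prmt5 KO 1 and Prmt5 KO 4 it was -0.72, both further from 0 than the median with all libraries. Sycp2, Syce1 and Syce2 stayed below 0 and Rec8 above 0 whichever library was left out.

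**Figure D4:**
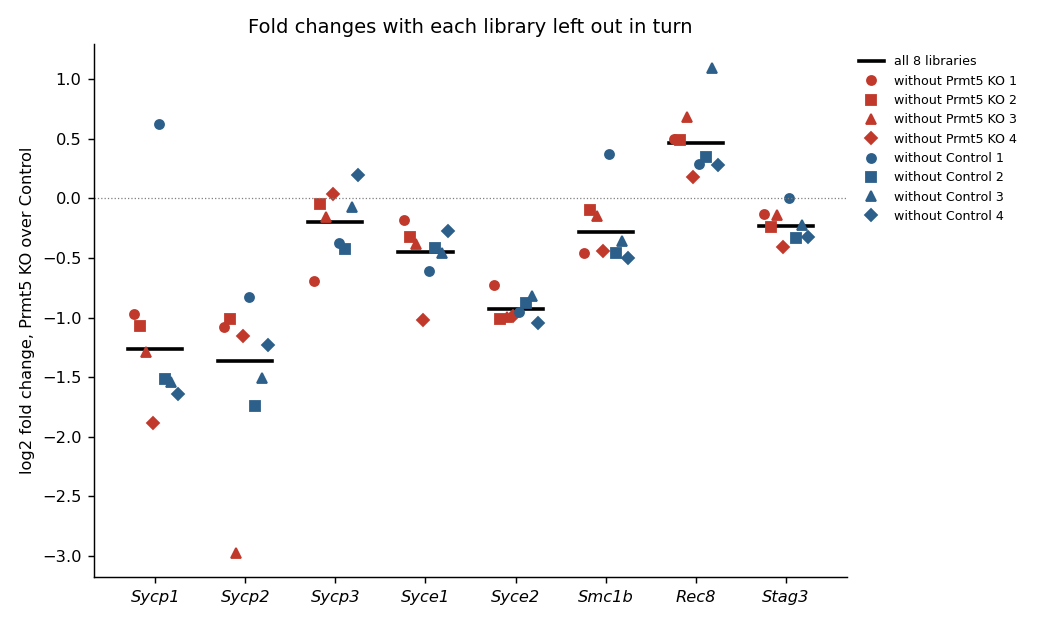
Log2 fold change of Prmt5 KO over Control (y axis) of the 8 tested genes with all libraries (black line) and with each library left out in turn (red symbols for Prmt5 KO, blue for Control). Syce2 lies between -1.04 and -0.73 in all 8 leave-outs, while Sycp1 lies between -1.88 and 0.63.

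The files hold a count for each annotated transcript, which allowed the transcripts of a gene to be set against each other within a library. Of 34 transcripts annotated for the 9 genes, 28 had reads. The count of each was expressed as a percent of that of the most counted transcript of its gene, and 18 transcripts of the set had such a percent in all 8 libraries. Reads that overlap several transcripts appear in each of them, so these percents are not shares of molecules. The groups did not overlap for 3 of the 18: 2 were higher in Prmt5 KO and 1 was lower. The background was 27866 transcripts of genes whose counted transcript had at least 10 reads in every library. Of these, 1.4% were higher in Prmt5 KO and 2.08% lower without overlap. Sycp2 and Sycp3, with 1 and 9 reads in Control 2, are not in this background.

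Syce2 held both of the higher ones. Its retained-intron transcript, ENSMUST00000144466, has 282 of its 463 bases outside the counted transcript, in the intron before the second exon. It stood at 20.6%, 16.7%, 21.2% and 22.8% of the counted transcript in Prmt5 KO, against 12.2%, 14.6%, 11.7% and 16.1% in Control. Every Prmt5 KO library was above every Control library, though Prmt5 KO 2 and Control 4 nearly met. In CPM the same transcript averaged 19.2 ± 6.03 in Prmt5 KO and 24.3 ± 3.56 in Control (SD, n = 4 each), with overlap, while the other 3 counted Syce2 transcripts, the full-length one among them, were lower in every Prmt5 KO library than in any Control library. A coding transcript with a short last exon, ENSMUST00000170296, averaged 97.7% ± 2.85 in Prmt5 KO and 93.1% ± 1.32 in Control. A transcript annotated for nonsense-mediated decay, ENSMUST00000003922, which skips an exon, averaged 66.8% ± 8.86 in Prmt5 KO and 52.8% ± 6.25 in Control, and its groups overlapped. Among 7564 retained-intron transcripts of the same background, 1.47% were higher in Prmt5 KO without overlap and 1.94% lower, and the median difference was -0.0886 percentage points. The lower one of the set was a nonsense-mediated decay transcript of Sycp3, at 84.7% ± 2.14 in Prmt5 KO and 89.4% ± 1.62 in Control. It had 8 reads in Control 2 and lies outside the background.

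**Figure D5:**
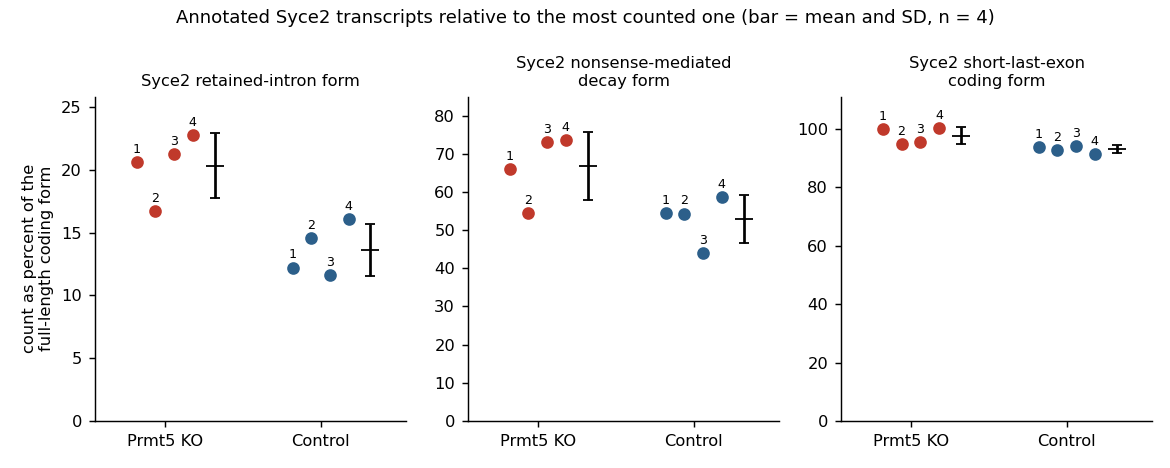
Counts of 3 annotated Syce2 transcripts as a percent of the count of the full-length coding transcript (y axes, from 0) in each library, with Prmt5 KO in red left of Control in blue and the mean with SD beside them (n = 4 each). The retained-intron form lies between 16.7% and 22.8% in Prmt5 KO and between 11.7% and 16.1% in Control.

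Reads were sparse towards the 5′ end in Stag3 and Sycp2, the long genes with several counted transcripts. A Stag3 transcript of 4 exons near the 3′ end, ENSMUST00000160849, covers 9.81% of the length of the counted transcript and held 32.7% of its count, while the transcript made of the first 7 exons, ENSMUST00000160729, covers 21.2% of the length and held 2.48%. In Sycp2, a 3′ transcript of 45.8% of the length held 79.5% of the count. The Stag3 transcript at the 3′ end itself, ENSMUST00000159189, covers 12.7% of the length and held 13.9% of the count, so the last exons held no clear excess. In Syce2, ENSMUST00000170296 lacks most of the last exon, covers 55.1% of the length and held 94.8% of the count. Levels per kb of Stag3, Sycp2 and Syce2 may therefore be too low beside those of genes with evenly spread reads. Sycp1 and Smc1b have a single counted transcript, so the position of their reads was not seen.

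Among 8230 genes with a mean of at least 10 CPM, the profile over the 8 libraries most like that of Syce2 was that of Arglu1, a splicing-associated gene, with a root mean square difference of 0.205 in log2 CPM after each gene's own mean was subtracted. It averaged 58.5 ± 12.4 CPM in Prmt5 KO and 93.3 ± 11.6 CPM in Control (SD, n = 4 each). The zinc finger genes Zbtb25, with a difference of 0.227, and Zfp516, with 0.230, came next. Of the 4 other genes of the set with at least 10 CPM, Stag3 came at rank 881 of the 8230 with a difference of 0.551 and Syce1 at rank 1135 with 0.571, while Smc1b came at rank 6021 and Rec8 at rank 6494. Likeness was measured to Syce2 alone.

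The other genes of the meiotic programme stood on both sides of 0, and 0 of them were called by edgeR or DESeq2. DESeq2 gave no p-value for Ccdc36, so that gene could not be called by it. At an unadjusted p below 0.05 (edgeR) there were 0 of the further axis genes, 1 recombination gene, Dmc1, on the lower side, and 1 meiotic entry gene, Tex15, on the higher side. Of all 10990 tested genes, 405 reached this level on the lower side and 491 on the higher side. Of 11 further axis and central element genes 5 were tested, 3 with a fold change above 0 and 2 below, and a median log2 fold change of 0.12. Hormad2, which marks unsynapsed axes, averaged 11.0 ± 4.16 CPM in Prmt5 KO and 23.0 ± 13.4 CPM in Control (log2 fold change -1.07, adjusted p = 0.651 in edgeR; -0.65 without Control 1), and Fkbp6, a germ cell co-chaperone, 264 ± 43.4 CPM in Prmt5 KO and 231 ± 49.6 CPM in Control. The partner of Syce2, Tex12, was below the filter at 2.00 ± 1.502 CPM in Prmt5 KO and 0.539 ± 0.488 CPM in Control. Of 33 genes of meiotic double-strand breaks and recombination 14 were tested, 6 above 0 and 8 below, with a median of -0.05. The meiotic recombinase Dmc1 averaged 5.17 ± 2.65 CPM in Prmt5 KO and 18.5 ± 14.3 CPM in Control (log2 fold change -1.83, adjusted p = 0.542 in edgeR), and Ccdc36, needed for break formation, stood at 0.92 on the log2 scale with all libraries and at -0.48 without Prmt5 KO 4. Of 20 genes of meiotic entry and germline regulation 12 were tested, 6 above 0 and 6 below, with Tex15 at 1.41, Tex11 at -1.31 and a median of -0.02 on the log2 scale. Tex11 stood at -2.13 without Prmt5 KO 4 and at -0.69 without Control 1. Stra8, the gene that marks meiotic entry, had reads in only 2 libraries, at 1.34 CPM in Prmt5 KO 3 and 0.176 CPM in Control 4.

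Genes that load, release or protect cohesin also stood on both sides of 0, with 7 above and 7 below among 14 tested of 19 and a median log2 fold change of 0.00. None was called by edgeR. At an unadjusted p below 0.05 (edgeR), 2 of the 14, Wapl and Cdca5, were higher, against 491 of all 10990 tested genes. Wapl, which opens the ring and releases cohesin from chromosomes, averaged 336 ± 51.9 CPM in Prmt5 KO and 192 ± 49.5 CPM in Control (SD, n = 4 each). Each Prmt5 KO library lay above each Control library, as for 2.63% of all tested genes. Its fold change of 0.81 on the log2 scale (SE 0.191) had an edgeR adjusted p of 0.244, so it did not pass, and DESeq2 gave an adjusted p of 0.020, within a range of 0.020 to 0.760 over the alternatives. Cdca5, the sororin that counters Wapl, stood at 0.48 on the log2 scale (edgeR, adjusted p = 0.586) and at 0.21 without Prmt5 KO 4. Of 15 condensin and Smc5/6 genes 14 were tested, 8 above 0 and 6 below, with 0 called and a median of 0.04. Of these 14, 1, Nsmce2, was higher at an unadjusted p below 0.05 (edgeR), against the same 491 of 10990. Nsmce2 stood at 0.50 and Ncaph2 at 0.44 on the log2 scale (0.15 for Ncaph2 without Prmt5 KO 4). Exons of Ncaph2 overlap those of Tymp and Sco2 on the opposite strand.

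Of 18 known repressors of germline genes 16 were tested, 12 with a fold change above 0 and 4 below, with a median log2 fold change of 0.13 and 0 called, 0 of them at an unadjusted p below 0.05 and 0 with DESeq2. Their summed level was 1245, 1319, 1292 and 1397 CPM in Prmt5 KO, against 1231, 1162, 1193 and 1177 CPM in Control. The lowest Prmt5 KO library and the highest Control library, Prmt5 KO 1 and Control 1, nearly met. Mga, whose protein is known to bind CACGTG in dimers with MAX, averaged 81.6 ± 18.3 CPM in Prmt5 KO and 56.1 ± 7.28 CPM in Control (log2 fold change 0.54, adjusted p = 0.614 in edgeR), with overlap. Binding of the protein at the promoters of the set was not tested. Dnmt1, the maintenance DNA methyltransferase, averaged 318 ± 26.1 CPM in Prmt5 KO and 260 ± 43.7 CPM in Control, or 0.29 on the log2 scale (edgeR, adjusted p = 0.672).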

How the data were processed

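Primordial germ cell RNA (4 Prmt5 KO and 4 Control libraries) was sequenced on SOLiD after picopure extraction and amplification from 50 pg of total RNA, per the labels. The authors deposited whole-number read counts per transcript and library. GRCm38 and mm10 are the builds in the submitters' processing notes; the aligner, counter, annotation and strand are not given in the sources used. Gene counts had been assumed in the design. Transcript identifiers were matched to GENCODE M21 (64258 of 66262), unmatched ones (1.75% to 1.90% of counts) were left out, and the most counted transcript over the 8 libraries stood for its gene, since reads shared by transcripts appear to be counted in each.

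Genes were filtered with filterByExpr (minimum count 10, minimum total 15; 10990 genes), scaled by TMM and compared with edgeR 4.0.16 (robust quasi-likelihood test, no covariates, Benjamini-Hochberg over all tested genes at 0.05), and the test was checked on simulated data. Standard errors came from the log2 fold change and the square root of its F statistic. CPM used TMM-scaled sizes. The common biological coefficient of variation was 0.488, which sets the precision at 4 libraries per group. No library pair was identical. Alternatives with DESeq2 1.42.0, limma 3.58.1 voom, other scalings, filters, transcripts and left-out libraries were run. Promoters came from RefSeq tables of GRCm38.p6. The 9 genes, the 12 related lists and the left-out libraries were chosen with earlier results of these data known. The text names all 9 genes, Prmt5, the mitotic cohesin genes, 2 genes per related list by unadjusted p, the top marker by level for each other cell type and the 3 genes most like Syce2. Dazl was also among the 2 of its list. Stra8, Tex12 and the marker values of Kdr, Emcn, Cdh5, Tie1, Hbb-y, Hba-a1, Hba-x and Hbb-bs were added after their values were seen.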

Additional observations from a re-analysis of the deposited data

Results flagged for a closer look

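In groups of 4 libraries, a library was singled out where its gap to the nearest of the others was a larger share of the range of its group than Dixon's 95% critical value. Chance singles out about 1 in 20 groups if values are normally distributed and groups independent. For the 110 searched this gives about 5.5, and 20 libraries were found. Some groups share values, as the somatic sum holds Acta2 and Col1a1, and the zeros of Syce3 fix the outcome of its groups. The 20 can therefore not be read as an excess over 5.5. Among the 9 genes these were Sycp1 in Control 1 (31.3 CPM), Sycp2 in Prmt5 KO 3 (7.59 CPM), Syce2 in Prmt5 KO 1 (53.2 CPM, low), Rec8 in Control 3 (29.1 CPM), and Syce3 in Prmt5 KO 1 (2.53 CPM) and Control 4 (0.176 CPM), where the other 3 libraries of the group were at 0. The share of Stag3 among the Stag genes was singled out as high in Control 1, at 71.4%.

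Among the mitotic subunits Rad21 in Prmt5 KO 1 (793 CPM) and Smc1a in Control 1 (308 CPM) stood far above their groups. Ccdc36 at 55.6 CPM and Tdrd7 at 42.4 CPM stood out in Prmt5 KO 4, and Tdrd7 at 18.8 CPM in Control 1. Marker genes singled out were Acta2 (208 CPM) and Col1a1 (92.9 CPM) in Prmt5 KO 1, Col1a1 (6.25 CPM) in Control 2 and Tek (28.9 CPM) in Control 1. Summed levels singled out were 828 CPM of somatic markers in Prmt5 KO 1, 1309 CPM of meiotic entry genes in Prmt5 KO 4 and 2252 CPM of condensin and Smc5/6 genes in Control 4. The mitochondrial share of counts in Prmt5 KO 1, 11.3%, was high within its group only, as Control 2 had 11.5%.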

How the results depend on the processing

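Over 22 alternatives no gene of the set was called except Syce2 with DESeq2 (1 member called, log2 fold change -0.92). The number of genes called was 3 as reported, 107 with DESeq2, 7 with no filter, 1 with limma voom, the genes detected as a covariate, the sum of transcripts or without Prmt5 KO 1 and 4, 0 without Control 2 and 3 (edgeR, 713 of 12095 at an unadjusted p below 0.05), and between 1 and 2 with 1 library left out. With the replicate number as a block 1 gene and none of the set was called (Syce2 -0.97, median of the set -0.28). Libraries numbered 1, 2 and 4 correlated best with their own number in the other group, at 0.0694, 0.0396 and 0.0504. Those numbered 3 did not, at 0.00226. Whether the numbers mark pairs is not known here, and the main fit did not use them. The median of the set lay between -0.71 and -0.19 with 1 library left out and between -0.72 and -0.26 otherwise. With 1 library left out, directions turned within the ranges -1.88 to 0.63 for Sycp1, -0.70 to 0.19 for Sycp3 (0.04 without Prmt5 KO 4, 0.19 without Control 4), -0.50 to 0.37 for Smc1b, -0.41 to 0.0024 for Stag3, -0.0883 to 0.18 for Rad21, -0.0900 to 0.27 for Smc1a, -0.0833 to 0.13 for Stag1, -1.42 to 0.62 for Stag2, -0.25 to 3.88 for Acta2, -0.60 to 3.47 for Col1a1, -0.48 to 1.56 for Ccdc36 and -0.11 to 0.0736 for Pecam1. Without Prmt5 KO 1 and 4 the log2 fold change turned to -0.20 for Acta2, -0.39 for Ccdc36, -0.50 for Col1a1, 0.0445 for Csf1r, 0.00964 for Pecam1, -0.0577 for Rad21, -0.24 for Stag1 and 0.60 for Stag2. Without Control 2 and 3 it turned to 0.0592 for Pecam1, -0.0610 for Smc1a and 0.30 for Stag2. Pecam1 was 0.0545 with the covariate and 0.0027 with no filter, Stag1 -0.0278 with library totals only and -0.0122 with the block, and Stag2 0.0300 with the sum of transcripts. Taking the protein-coding transcript was added after the data were seen and left the median of the set at -0.36. The cause of these changes was not tested. Within the set and the mitotic cohesin core, the genes with few reads (Sycp1, Sycp2, Sycp3, Syce3, Stag2) had the widest intervals or none.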
